A study of Caenorhabditis elegans with 24 samples.

Results

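The worms described here were the untreated control of the 3rd generation in a *Caenorhabditis elegans* lineage experiment, called exposure 3 normoxia below. They gave 3 of the 24 RNA libraries of the series, and they were set against the 9 normoxia libraries of exposures 1, 2 and 4 (3 each). All animals were wild type, grown on OP50 bacteria at 20 °C and taken as whole worms. In the study, L4 larvae of each of 4 successive generations were held at 0.1% oxygen for 16 hours (hypoxia) or left at the oxygen level of normal air (normoxia). Part of each worm pellet was put on a new plate to lay the eggs of the next generation, and the rest was frozen for RNA. The normoxia worms of exposure 3 thus had no stated treatment that those of exposures 1, 2 and 4 lacked, and they differed from them by generation and round of culture. Generation and round of culture cannot be told apart, and the p-values measure the spread between the 3 libraries of each group. The groups came from the labels alone and no measured value chose them. The comparison was made over the 12517 genes with at least 350 counts summed over the 6 libraries of each exposure.

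A *C. elegans* hermaphrodite makes sperm first, around its last larval stage, then switches the same gonad to oocytes for the rest of its life. The crawling sperm are filled with major sperm protein (MSP), a small cytoskeletal protein encoded by a family of near-identical genes that are transcribed in germ cells forming sperm. The body is covered by a cuticle of collagens secreted by the hypodermis, rebuilt at each molt in ordered waves, with furrow collagens and a temporary apical matrix laid down early and other collagens later. An adult keeps making a set of adult collagens, loads yolk made by its intestine into oocytes, and carries embryos that build their own first cuticle.

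Exposure 3 normoxia libraries held 32077447 to 35228236 counts, against 29373731 to 46228496 in the other normoxia libraries, so depth overlapped. Ribosomal RNA took 0.835 to 1.15% of counts in exposure 3 normoxia and 0.528 to 4.805% in the others. Although the labels name the L4 stage, the worms were collected 16 hours later, and transcripts of the adult were read in all 12 libraries, with at least 17670 CPM of oocyte and eggshell genes and at least 442 CPM of adult collagens. The 8 genes of male-specific neurons did not pass the count filter, and their sum was 2.23, 2.08 and 2.19 CPM (counts scaled to the library total) in exposure 3 normoxia against 1.66 to 3.46 CPM in the others. The male neuron transcripts therefore overlapped between the groups. Replicates 1, 2 and 3 are numbered as in the labels, and values of 3 libraries are given in that order.

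In exposure 3 normoxia all 28 tested MSP genes and 80 of 110 tested *col* collagen genes were higher, and 11 of 22 tested molting and apical matrix genes were lower. In edgeR's quasi-likelihood test with a Benjamini-Hochberg adjusted p under 0.05, 1569 genes were higher (12.5% of the genes tested) and 982 were lower (7.85%) than the mean of the other 3 normoxia groups. Those shares are the background of the list counts against the mean given below. A call against a mean does not place a culture outside each of the others, so a stricter count was made of called genes with all 3 exposure 3 libraries beyond all 9 others. It held 1065 higher genes (8.51%) and only 227 lower genes (1.81%). The higher genes also moved further, with a median log2 fold change of 1.11 and 699 of them past 1, while the median of the 227 lower genes was -0.26 and 3 were below -1. The median over all genes tested was -0.02. Without exposure 3 replicate 2, which stood apart from its group as described below, 1373 genes were higher and 564 lower, and without replicate 1 or 3 there were 440 or 544 lower genes.

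The 1065 genes had few reads, with a median of 7.43 CPM in exposure 3 normoxia and 3.53 CPM in the others, where all genes tested had medians of 22.2 and 22.3 CPM. They held 61 of the 67 tested members of the 2 sperm lists and 47 of the 131 tested collagens. Counted as without a gene name were 646 of the 1065, beside 5154 of the 12517 genes tested. The annotation holds a symbol for 44115 of its 46926 genes, so many genes in that count do have a symbol. Against exposure 1 alone 1301 genes were higher and 861 lower, against exposure 2 2454 and 2410, and against exposure 4 1694 and 808. All 3 of these calls were made higher for 851 genes and lower for 41. These counts share the exposure 3 libraries.

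Each other generation also differed from the rest when tested in the same way. Exposure 1 normoxia had 528 higher and 457 lower genes, exposure 2 had 3092 and 2654, and exposure 4 had 2432 and 2951. By calls, exposure 3 was thus less distinct than exposures 2 and 4 and more distinct than exposure 1. Genes past a 2-fold difference numbered 812 in exposure 3, 86 in exposure 1, 860 in exposure 2 and 497 in exposure 4. With 1 mean value per generation in limma, 0 genes passed the adjusted threshold (smallest adjusted p 0.392), and 896 had an unadjusted p under 0.05, of which 864 were higher in exposure 3.

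On principal components of log2 CPM, the exposure 3 normoxia libraries lay at 37.2, 25.6 and 36.5 on component 2 (20.9% of variance), against -24.9 to -1.35 for the other 9. Component 1 (50.0%) ran from exposure 2, at -46.6 to -42.9, to exposure 4, at 19.2 to 40.95. Exposure 3 replicate 2, at 33.1 on component 1, stood apart from replicates 1 and 3 at 9.67 and -0.17. Exposure 1 replicate 1 stood apart from its group in the same direction, at 28.7 against -9.69 and -22.4.

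**Figure D1:**
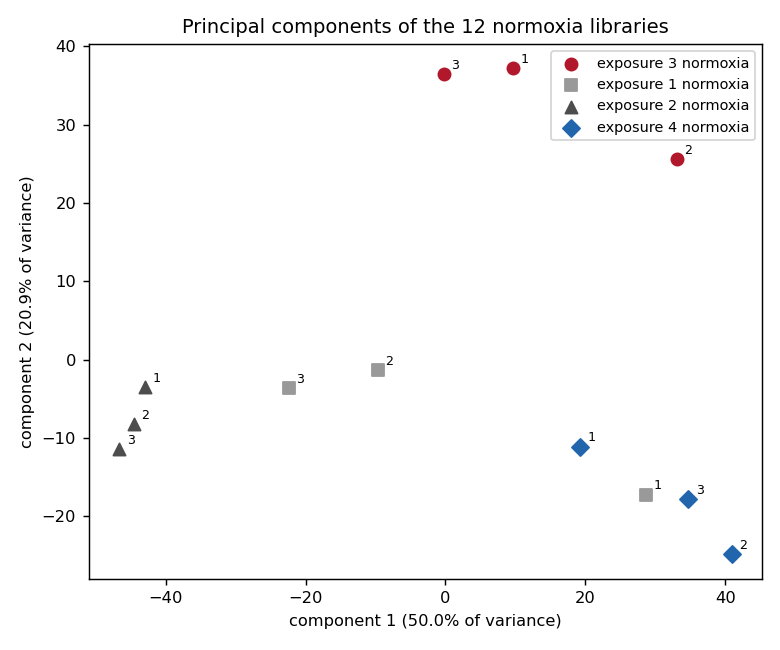
Each point is 1 normoxia library placed by its scores on components 1 and 2 of centered log2 CPM, numbered by replicate and coloured by exposure. The 3 exposure 3 libraries sit at 25.6 to 37.2 on component 2, above the other 9 libraries, which end at -1.35.

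Of 31 MSP genes 28 passed the count filter, and all 28 were higher, beside 12.5% of all genes tested, each with the 3 exposure 3 libraries above the 9 others. Their log2 fold changes were close together, between 1.12 and 1.43 with a median of 1.25. Summed over the family, MSP transcripts made up 1992, 1913 and 1771 CPM in exposure 3 normoxia, against 556 to 1076 CPM in the others (median library 827). The lowest exposure 3 library was thus well above the highest other one, an exposure 2 library. The 28 were called higher whichever library was left out, and also against each of exposures 1, 2 and 4 alone, with medians of 1.09, 1.03 and 1.603. In whole worms, more germ cells forming sperm and more RNA per such cell cannot be told apart.

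*msp-81*, on chromosome IV at 9836034 to 9836417 (WBcel235), had 118, 113 and 111 CPM in exposure 3 normoxia, against a lowest, median and highest of 32.4, 46.01 and 55.7 CPM in the other libraries. All 3 replicates lay above the highest other library (log2 fold change 1.38, SE 0.08, edgeR adjusted p 1.06e-06). *msp-64* showed the largest rise of the family, with 40.1, 44.9 and 41.9 CPM in exposure 3 against 11.3, 16.0 and 20.7 (log2 1.43, SE 0.10, adjusted p 2.91e-06). *msp-57* had 115, 105 and 103 CPM against 33.9, 49.7 and 68.4 CPM (log2 1.14, SE 0.10, adjusted p 1.22e-05). *msp-19* and *msp-152* rose by 1.30 and 1.38 log2 units. The 28 genes lie on 2 chromosomes, 10 on chromosome II and 18 on chromosome IV. Because the coding sequences are nearly the same, reads may be shared among them, and the family sum is firmer than the value of any 1 member.

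The list of sperm function genes holds genes of sperm formation, activation and fertilization and the sperm-specific *ssp*, *ssq* and *nspd* families. Of 58 members 39 were tested, 35 were higher, 33 in all libraries, and 0 were lower in edgeR. At an unadjusted p under 0.05, and in DESeq2, 0 were lower as well, since the smallest log2 fold change of the list was 0.02. The median log2 fold change was 1.23, close to that of the MSPs, beside -0.02 over all genes tested. Their summed level was 1186, 1204 and 1056 CPM in exposure 3 normoxia, against 476 to 725 CPM (median 570) in the other libraries, again without overlap.

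*ssq-4*, a member of the sperm-specific *ssq* family, had 184, 180 and 161.7 CPM in exposure 3 normoxia, against 57.5, 76.8 and 109 CPM as the lowest, median and highest other library (log2 1.24, SE 0.09, adjusted p 3.07e-06). *ssq-2* had 164, 170 and 138 CPM against 54.5, 64.2 and 87.2 (log2 1.30, SE 0.08). Both genes were above every other library. *nspd-3*, of a nematode-specific peptide family, had 20.2, 23.5 and 18.4 CPM against 3.56, 6.97 and 10.7 and rose most in the list (log2 1.64, SE 0.24, adjusted p 5.66e-04). Its relative *nspd-5* rose by 1.62.

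Genes of known function in sperm, *gsp-3*, *spe-11* and *fer-1*, were chosen after their values were seen. *gsp-3*, a sperm protein phosphatase, had 36.8, 35.5 and 34.3 CPM in exposure 3 normoxia, against 12.64, 17.4 and 22.2 CPM in the others (log2 1.07, SE 0.07). *spe-11*, whose product is delivered to the egg by the sperm, had 11.5, 10.7 and 10.1 CPM against 3.39, 4.23 and 4.94 (log2 1.36, SE 0.11). *fer-1*, a ferlin needed for fusion of the membranous organelles of sperm, rose less, by 0.66 (SE 0.17, adjusted p 0.0201), and its libraries overlapped the others. *spe-39*, a vesicle trafficking gene expressed in many tissues besides the germ line, had 80.2, 80.3 and 70.8 CPM against 70.7, 73.4 and 85.7. It differed by 0.02 and was not called (adjusted p 0.808).

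**Figure D2:**
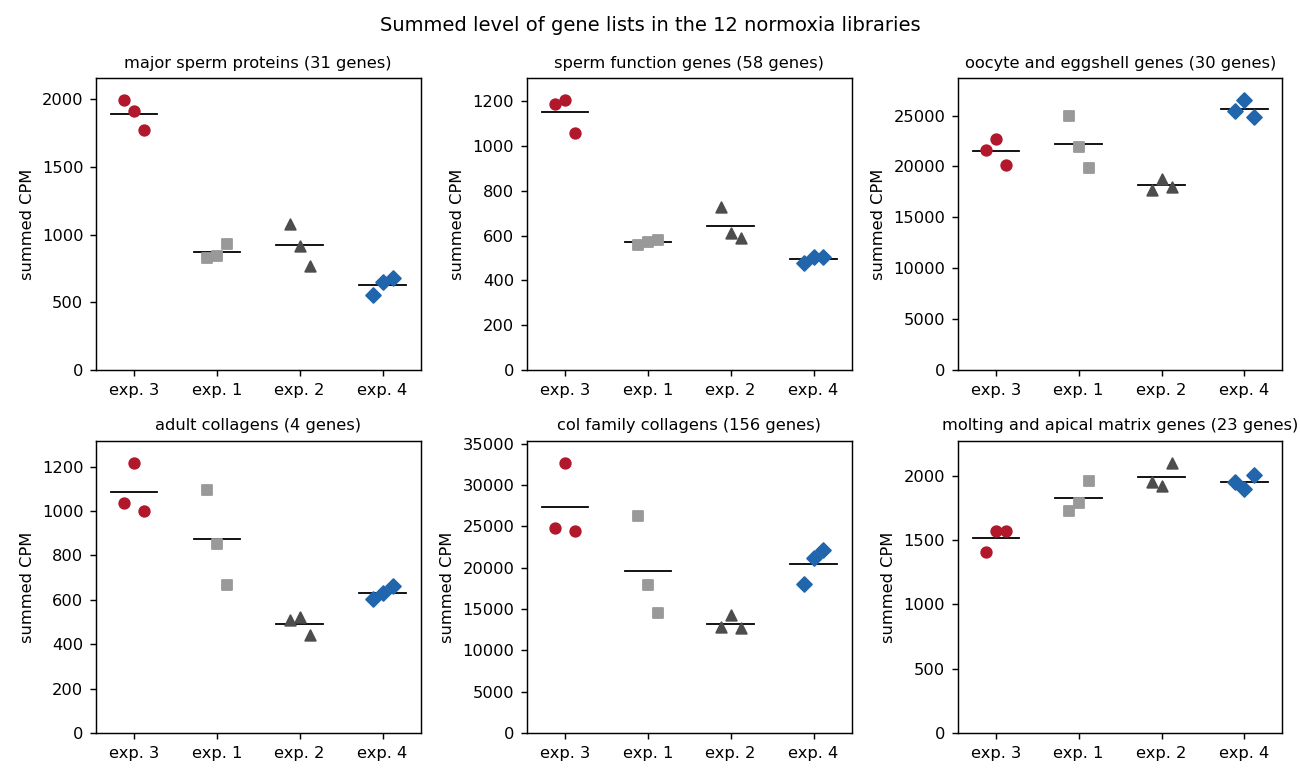
Summed CPM of all members of 6 gene lists in each of the 12 normoxia libraries, with 1 point per library and a bar at the mean of each exposure. The 3 exposure 3 points of the MSP panel lie between 1771 and 1992 CPM, above all others (556 to 1076), the molting and apical matrix points at 1407 to 1574 CPM lie below all others (1725 to 2103), and the oocyte and eggshell points overlap.

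Oocyte and meiosis genes gave few calls against the mean of the other groups. Of 30 oocyte and eggshell genes, all tested, 1 was lower and 0 were higher in edgeR, with a median of -0.03 and all members between -0.20 and 0.15. At an unadjusted p under 0.05 there were 3 lower and 1 higher, and DESeq2 called 3 lower and 0 higher. Their sum was 21640, 22670 and 20150 CPM in exposure 3 normoxia and 17670 to 26520 CPM in the others. Against exposure 2 alone 15 of the 30 genes were higher and 1 was lower (median log2 fold change 0.25). Against exposure 4 alone 12 were lower and 0 higher (median -0.26), and against exposure 1 alone 0 were called. The one gene called against the mean was *cpg-3*, an eggshell proteoglycan, with 281, 271 and 267 CPM against 264, 301 and 386 (log2 -0.20, SE 0.06, adjusted p 0.0413). That call was lost when any 1 of the exposure 3 libraries was left out. The eggshell proteoglycan gene *cpg-2* had 1627, 1638 and 1511 CPM against 1417, 1629 and 2001 CPM and was not called.

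Of the 23 meiosis genes edgeR called 0 against the mean, with a median of 0.02 and values between -0.21 and 0.13 (2 lower at an unadjusted p under 0.05, 1 lower in DESeq2). Of 25 DNA replication genes 3 were lower, and of 20 germ granule genes 1 was lower, with medians of -0.08 and -0.01. All members of these 3 lists and of the oocyte list lay between -0.26 and 0.15. The DNA replication calls against the mean were lost without exposure 3 replicate 3. Against exposure 2 alone 8 meiosis, 3 DNA replication and 8 germ granule genes were higher, and 1, 1 and 0 were lower. Against exposure 4 alone 4, 17 and 7 were lower and 0 of each list were higher. Of 14 tested zygotic genes of the embryo 1 was higher and 7 were lower against the mean, with a median of -0.39, but no member was lower in all libraries. Against exposures 1 and 2 alone 10 members each were lower, and against exposure 4 alone none was, with a median of 0.12. The lower genes numbered 2 without exposure 3 replicate 2 and 4 without replicate 1.

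Yolk genes varied within groups. Of the 6 vitellogenins, *vit-1* and *vit-3* were higher and the other 4 were not called. *vit-1* had 3412, 4443 and 2149 CPM in exposure 3 normoxia, against 210, 1452 and 5357 CPM in the others (log2 1.603, SE 0.46, adjusted p 0.0283). *vit-3* had 8153, 8406 and 6867 CPM against 1258, 4556 and 10260 CPM (log2 1.013, SE 0.29, adjusted p 0.0312). Both overlapped the other cultures, and both calls were lost without exposure 3 replicate 1 or 2 or when exposure 2 was left out of the mean. *vit-6*, which encodes another yolk protein, had 26120, 18920 and 26940 CPM against 14820, 22830 and 31420 and was not called.

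The largest rises were of cuticle collagens, the fibrous proteins of the body covering. Of 156 *col* genes 110 were tested, 80 were higher and 3 lower (70 to 91 higher with 1 library left out), with a median log2 fold change of 0.95, and 46 were higher in all libraries. The 3 lower calls were lost without exposure 3 replicate 1 or 3 or with exposure 2 left out of the mean. Summed *col* transcripts reached 24850, 32720 and 24430 CPM in exposure 3 normoxia, against 12660 to 26310 CPM in the others (median 17970). One exposure 1 library, replicate 1, reached 26310 CPM, inside the exposure 3 range. The *col* genes stood apart most from exposure 2, where 89 were higher, then from exposure 1 with 73, and least from exposure 4 with 48. With exposure 4 left out of the comparison, 74 in place of 46 lay above every remaining library.

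Of the 12 largest rises beyond all other libraries, 10 were *col* genes. *col-137* on chromosome IV (16601480 to 16602776) had 15.4, 23.2 and 15.9 CPM in exposure 3 normoxia, against 0.372, 2.90 and 7.22 CPM as lowest, median and highest other library (log2 3.21, SE 0.38, adjusted p 1.11e-04). *col-88* on chromosome III (41063 to 41971) had 96.7, 123 and 109 CPM against 8.63, 25.01 and 42.5 CPM (log2 2.34, SE 0.18, adjusted p 6.64e-06). For both genes the exposure 3 libraries were above the highest other one. *col-137* was near the floor in exposure 2 normoxia, at 0.66, 0.37 and 0.37 CPM, and it passed the count filter only with its hypoxia counts.

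Collagens with more reads were also above all other libraries. *col-71* had 306, 368 and 272 CPM against 38, 99.8 and 195 CPM (log2 1.82, SE 0.14). *col-161* had 233, 274 and 251 CPM against 28.3, 65.5 and 136 CPM (log2 1.93, SE 0.15). *col-162* had 130, 153 and 143 CPM against 14.9, 33.4 and 70.4 CPM (log2 2.14, SE 0.15). In each case the 3 exposure 3 libraries were above all 9 others. *col-60*, *col-120* and *col-145* rose by 2.03, 1.96 and 1.95, and *col-126* and *col-127* by 2.17 each.

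The other members of the 12 were *Y47D7A.15* and *oac-20*. *Y47D7A.15* on its own had 275, 325 and 305 CPM in exposure 3 normoxia, against 34.95, 85.8 and 128 CPM in the others (log2 2.00, SE 0.09, adjusted p 4.64e-07). It is not assigned to a family here, and all 3 libraries lay far above the others. *oac-20*, of an O-acyltransferase-like family, had 15.5, 19.9 and 10.1 CPM against 0.880, 5.98 and 9.86 (log2 1.85, SE 0.28), and it overlaps *fbxa-99* on the chromosome.

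**Figure D3:**
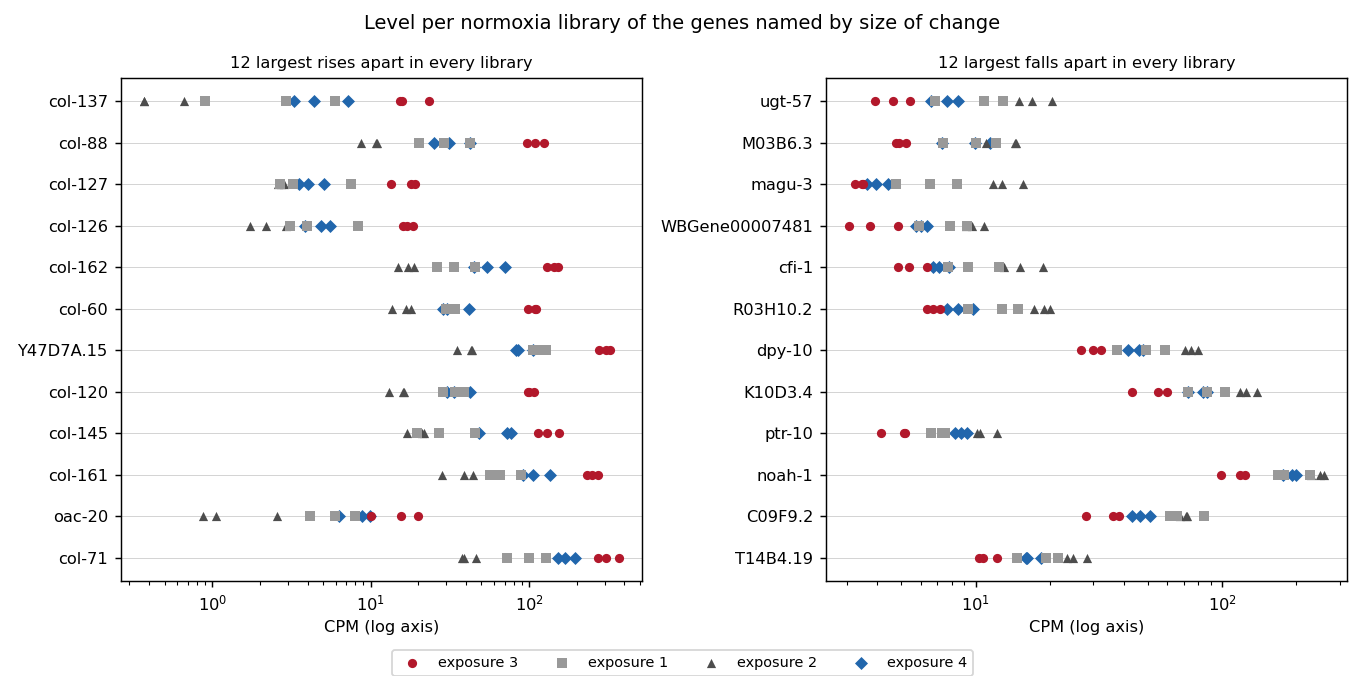
CPM on a log axis of the 12 largest rises (left) and the 12 largest falls (right) among called genes with all exposure 3 normoxia libraries outside the range of the 9 others, with 1 point per library, coloured by exposure. The rises are mostly collagens, with exposure 3 libraries at 96.7 to 123 CPM for *col-88* against at most 42.5, and the falls are smaller, from -1.25 to -0.85 on the log2 scale.

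All 4 adult collagens were higher, 3 of them in all libraries, with a median of 1.61. *col-7* had 73.7, 74.0 and 84.5 CPM in exposure 3 normoxia against 11.3, 28.6 and 37.96 CPM in the others (log2 1.69, SE 0.08, adjusted p 4.64e-07). *col-62* had 79.5, 77.5 and 89.7 CPM against 12.9, 32.2 and 40.9 (log2 1.64, SE 0.08), and *col-63* had 112, 121 and 109 CPM against 13.8, 50.5 and 77.2 (log2 1.59, SE 0.12). For all 3, every exposure 3 library was above every other one. *col-19*, the collagen most used to mark the adult stage, had 768, 945 and 716 CPM against 360, 538 and 978 (log2 0.56, SE 0.14, adjusted p 0.0151). It overlapped exposure 1 replicate 1, and its call was lost without exposure 3 replicate 2 and with exposure 2 left out of the mean.

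Furrow collagens form the rings of the cuticle and are made early in each molt cycle. Of the 6 genes, 4 were lower, 3 of them in all libraries, and 2 were higher. *dpy-10* had 26.9, 29.9 and 32.2 CPM in exposure 3 normoxia against 37.3, 48.9 and 80.1 CPM in the others (log2 -0.88, SE 0.12, adjusted p 2.74e-04). *dpy-7* had 23.1, 28.1 and 29.5 CPM against 34.7, 45.4 and 54.2 (log2 -0.75, SE 0.10), and *dpy-3* had 15.9, 17.7 and 18.6 against 20.7, 29.1 and 34.8 (log2 -0.74, SE 0.13). These 3 lay below every other library, while *dpy-2* (log2 -0.74) overlapped exposure 1 replicate 1. *T14B4.19* overlaps *dpy-10* on the same strand and also fell (log2 -0.85), so reads of the pair cannot be told apart.

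*dpy-8* and *dpy-9* went the other way against the mean (log2 0.50 and 0.41), but not against each culture. *dpy-8* averaged 29.1 CPM in exposure 3 normoxia, against 21.1 in exposure 1, 7.95 in exposure 2 and 52.0 in exposure 4. Exposure 3 lay above exposures 1 and 2 and below exposure 4, and without exposure 2 both fold changes were negative, at -0.18 and -0.30.

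Among 15 other body-shape collagens 11 were higher and 3 lower (median 0.98), but only *bli-6* was higher in all libraries. With exposure 2 left out of the mean 6 were higher and none was lower, and without exposure 3 replicate 1 there was 1 lower gene. *bli-6*, a collagen whose mutants have blistered cuticles, had 249, 262 and 262 CPM against 35.8, 100 and 128 CPM (log2 1.81, SE 0.09, adjusted p 5.22e-07). *dpy-5* had 265, 314 and 283 CPM against 39.5, 99.3 and 305 (log2 1.44, SE 0.12), and 2 of the exposure 4 libraries lay inside its exposure 3 range. *rol-6*, a hypodermal collagen of the same kind, had 49.03, 57.7 and 53.7 CPM against 9.03, 24.1 and 78.8 (log2 1.06, SE 0.10), and all exposure 4 libraries were above those of exposure 3. Against exposure 4 alone 1 member of this list was higher and 2 were lower, and 10 of the 15 lay above all remaining libraries when exposure 4 was left out. *dpy-17* and *sqt-3*, a pair of collagens that act together, were lower (log2 -0.89, SE 0.19, and -0.47, SE 0.14). *dpy-17* averaged 116 CPM in exposure 3 against 254 CPM in exposure 1, 464 CPM in exposure 2 and 84.5 CPM in exposure 4.

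The apical matrix is the temporary coat under which a new cuticle forms. Of 22 tested molting and apical matrix genes 11 were lower, 8 in all libraries, and 1 was higher. Their sum was 1407, 1574 and 1570 CPM in exposure 3 normoxia, against 1725 to 2103 CPM in the others (median 1950), without overlap. *noah-1*, a zona pellucida domain protein of the matrix that precedes the cuticle, had 99.3, 118.5 and 124 CPM against 169, 200 and 258 CPM (log2 -0.86, SE 0.10, adjusted p 8.69e-05). Its partner *noah-2* had 105, 118 and 123 CPM against 167, 202 and 236 (log2 -0.78, SE 0.09, adjusted p 8.96e-05). The lipocalin *lpr-3* of the same matrix, chosen after its values were seen, had 40.2, 54.6 and 48.8 CPM against 66, 80.8 and 94.8 (log2 -0.76, SE 0.10). All 3 were below each of the 9 other libraries. The number of lower genes in this list was 7 without exposure 3 replicate 1. The one member that rose was *nas-36*, a protease of the molt, with 5.85, 7.85 and 7.09 CPM against 2.17, 3.42 and 6.60 (log2 0.84, SE 0.16). *mlt-7*, a peroxidase that cross-links collagen, had 53.6, 60 and 70.8 CPM against 34.8, 41.98 and 49.2 CPM and was also higher (log2 0.53, SE 0.11), one of 2 higher genes among 13 tested collagen processing enzymes.

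The 12 largest falls beyond all libraries were modest, from -1.25 to -0.85. *ugt-57*, of the UDP-glucuronosyltransferase family, was first, with 3.90, 4.64 and 5.43 CPM in exposure 3 normoxia against 6.61, 10.8 and 20.5 CPM (log2 -1.25, SE 0.20). It was followed by *M03B6.3* (-1.12), *magu-3* of the membrane-associated guanylate kinase family (-1.06), *WBGene00007481* (-0.99), the neuronal transcription factor *cfi-1* (-0.90) and *R03H10.2* (-0.90). *K10D3.4* had 43.04, 59.9 and 55.0 CPM against 72.5, 87.1 and 139 (log2 -0.88, SE 0.12). The patched-related *ptr-10* (-0.87), *C09F9.2* (-0.85), *T14B4.19*, *dpy-10* and *noah-1* completed the set. Several of the genes that fell overlap a neighbour, among them *ugt-57*, *M03B6.3*, *magu-3*, *cfi-1*, *K10D3.4* and *ptr-10*.

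Hedgehog-related genes, which encode secreted proteins made largely by the hypodermis, moved in both directions. Of 26 tested hedgehog-related genes 9 were higher and 3 lower, and 16 were higher with exposure 4 left out of the mean. *grd-14* had 30.8, 35.5 and 34.9 CPM in exposure 3 normoxia against 4.64, 10.1 and 21.2 CPM in the others (log2 1.71, SE 0.17), and *grd-6* had 20.3, 23.4 and 26.02 CPM against 3.72, 8.62 and 11.6 (log2 1.58, SE 0.15). The 2 groundhog genes were above all other libraries. The warthog genes *wrt-2* and *wrt-10* were below all others, with 12.4, 15.8 and 15.1 CPM against 19.6, 24.4 and 34.96 for *wrt-2* (log2 -0.78, SE 0.13) and a log2 fold change of -0.64 for *wrt-10*.

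Of 16 tested heterochronic and molting timer genes 1 was higher and 6 were lower, or 3 without exposure 3 replicate 1. *hbl-1*, which holds back adult fates in the hypodermis, averaged 70.03 CPM in exposure 3 normoxia, against 162.2 CPM in exposure 1, 329 CPM in exposure 2 and 51.5 CPM in exposure 4 (log2 -0.9997 against the mean, SE 0.16, adjusted p 0.00103). *grh-1*, a transcription factor of the epidermis, had 23.4, 25.7 and 28.7 CPM against 29.04, 43.5 and 72.1 (log2 -0.73, SE 0.16). *lin-29*, which drives the change to the adult hypodermis, was slightly higher (log2 0.43, SE 0.13, adjusted p 0.0377). All 3 calls were lost with exposure 2 left out of the mean.

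Cuticlins, the insoluble proteins of the cuticle, had more lower than higher calls. *cut-3* had 22.02, 19.3 and 27.4 CPM in exposure 3 normoxia against 14.2, 70.7 and 166 CPM in the others (log2 -1.15, SE 0.27, adjusted p 0.0109), and exposure 4, with a mean of 15.9 CPM, was lower still. *cut-4* had 10.99, 12.8 and 13.2 CPM against 5.48, 7.17 and 8.68 and was higher (log2 0.83, SE 0.12). In all, 6 of 16 tested cuticlins were lower (3 without exposure 3 replicate 1) and 1 higher, and all the lower calls were lost with exposure 2 left out of the mean. Of 11 tested hypodermis markers 5 were lower against the mean, 2 of them in all libraries, and 1 was higher. Against exposures 1, 2 and 4 alone 3, 9 and 2 were lower. The lower markers numbered 2 without exposure 3 replicate 3 or with exposure 2 left out, and 3 without exposure 3 replicate 1 or 2 or exposure 4 replicate 2 or 3.

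**Figure D4:**
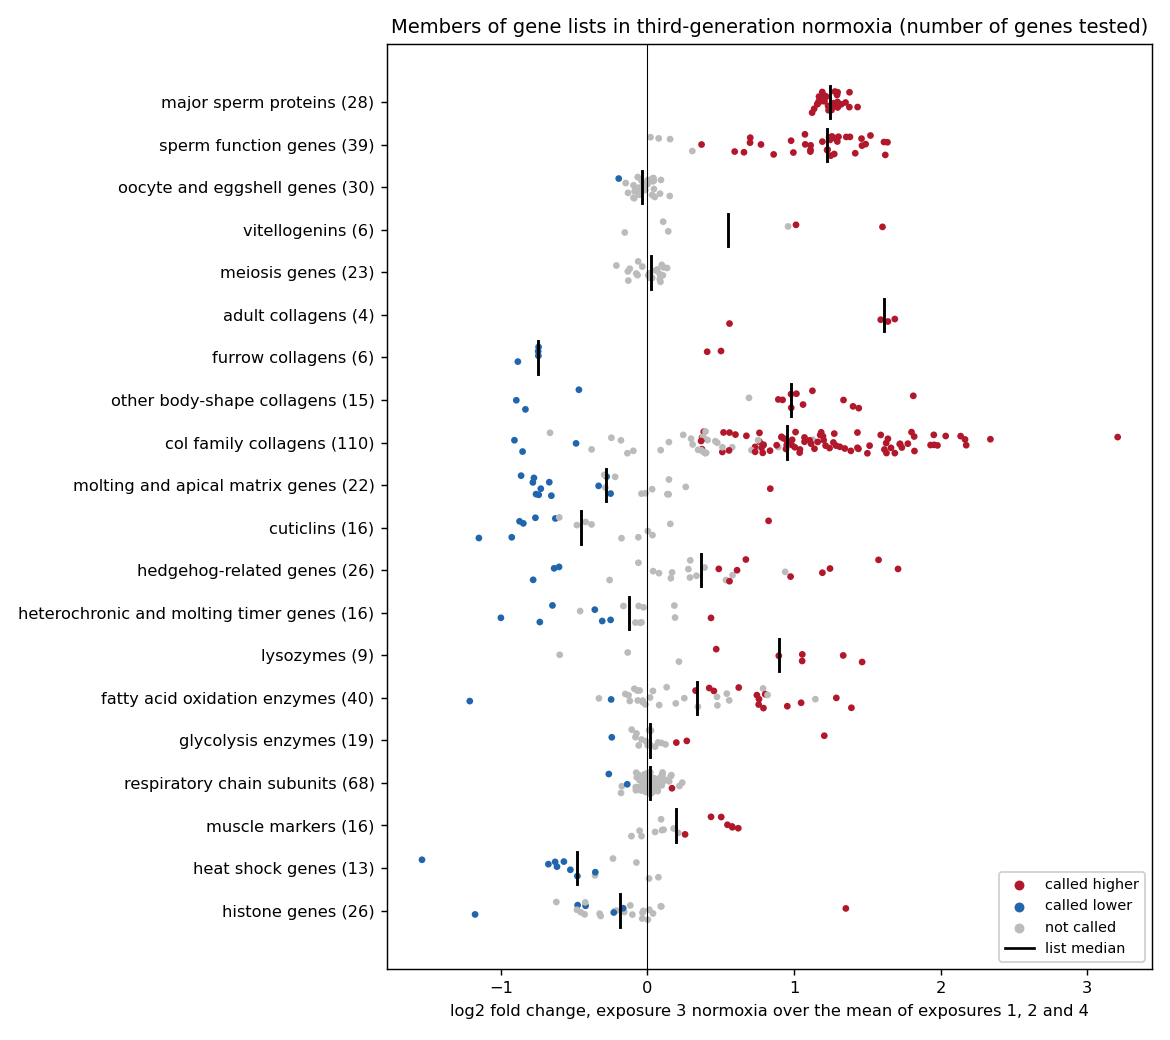
Log2 fold change of exposure 3 normoxia over the mean of exposures 1, 2 and 4 for each tested member of 20 gene lists, with called genes in red (higher) and blue (lower), uncalled genes in grey and the list median as a bar. All 28 MSPs lie between 1.12 and 1.43, while the 23 meiosis genes lie between -0.21 and 0.13.

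Among metabolic genes, the core pathways of energy and protein synthesis had medians near 0. Of 68 respiratory chain subunits 1 was higher and 2 lower (median 0.02), of 81 tested ribosomal proteins 1 was higher (median 0.04), and of 19 glycolysis enzymes 3 were higher and 1 lower (median 0.02). Without exposure 3 replicate 2 the higher glycolysis enzymes numbered 1, and without replicate 3 no respiratory subunit was lower. The one respiratory subunit that rose was *cox-4*, of cytochrome c oxidase, at 405, 415 and 387 CPM in exposure 3 normoxia against 331, 363 and 382 CPM (log2 0.17, SE 0.04). *pfk-1.2*, one of the 2 phosphofructokinase genes tested, had 8.20, 8.92 and 6.60 CPM against 2.60, 3.29 and 4.98 (log2 1.21, SE 0.15, adjusted p 1.39e-04). *aldo-2*, an aldolase, was lower (log2 -0.24, SE 0.07), at 835, 798 and 857 CPM against 772, 838 and 1562 CPM, and it was not called when exposure 2 was left out.

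Fatty acid oxidation enzymes gave more calls, with 13 of 40 tested genes higher and 2 lower (median 0.34). *acdh-8*, an acyl-CoA dehydrogenase, had 25.2, 27.3 and 25.6 CPM in exposure 3 normoxia against 8.98, 9.91 and 11.2 CPM in the others (log2 1.39, SE 0.07, adjusted p 4.64e-07). *acdh-5* had 10.23, 9.19 and 8.70 CPM against 3.09, 3.79 and 5.41 (log2 1.29, SE 0.11). Both were above every other library. *acdh-1*, whose product breaks down short-chain and branched acyl-CoA, had 813, 833 and 597 CPM against 139, 480 and 699 (log2 1.05, SE 0.17), and it overlapped the others. *cpt-4*, of the carnitine acyltransferase family, had 6.02, 6.90 and 6.72 CPM against 6.71, 15.9 and 25.1 (log2 -1.21, SE 0.19). The number of higher genes was 8 without exposure 3 replicate 1 and 7 with exposure 2 left out.

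Of 16 fatty acid desaturases and elongases 2 were higher and 2 lower, and both lower calls were lost without exposure 3 replicate 1 or 2. *elo-7*, an elongase, had 3.76, 3.54 and 4.07 CPM against 1.30, 1.87 and 2.90 (log2 1.04, SE 0.20). The omega-3 desaturase *fat-1* had 430, 383 and 501 CPM against 327, 549 and 1074 (log2 -0.36, SE 0.09). With exposure 2 left out of the mean it was not called and its fold change was positive, at 0.07. The fatty acid binding protein gene *lbp-7* had 56.5, 33.7 and 68.0 CPM against 14.3, 21.5 and 32.1 (log2 1.30, SE 0.22), above all others in each library. Of 50 tested UDP-glucuronosyltransferases, which conjugate toxins and lipids, 12 were higher and 1 lower, beside 12.5% and 7.85% of all genes tested. The higher ones numbered 7 without exposure 3 replicate 1 or 3 or with exposure 2 left out, and 18 without exposure 1 replicate 1. Of 38 cytochrome P450 genes 2 were higher (1 without exposure 3 replicate 1 or 3, 4 without exposure 1 replicate 1), and of 25 glutathione S-transferases 3 were higher (8 without exposure 1 replicate 1). Of 16 tested lipases and fatty acid binding proteins 3 were higher and 3 lower (1 lower without exposure 3 replicate 2 or 3). Of 5 tested metallothionein and cadmium response genes 2 were higher, and both calls were lost without exposure 3 replicate 1.

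Of 9 tested lysozymes, enzymes that digest bacterial cell walls, 6 were higher, 3 in all libraries, and summed lysozyme transcripts were 1295, 1274 and 1207 CPM in exposure 3 normoxia, against 392 to 1096 CPM in the others. *lys-1* had 413, 467 and 359 CPM against 79.0, 279 and 338 (log2 1.06, SE 0.17, adjusted p 8.41e-04). *ilys-5*, an invertebrate-type lysozyme, had 181, 215 and 143 CPM against 8.56, 90.3 and 166 (log2 1.46, SE 0.33, adjusted p 0.00882). The lysozymes were set apart mainly from exposure 2, against which 6 were higher, and 2 were called with exposure 2 left out of the mean. The epidermal antimicrobial peptide gene *nlp-33* had 55.5, 50.2 and 48.8 CPM against 10.8, 35.8 and 39.3 (log2 0.95, SE 0.10). Of 79 tested C-type lectins 18 were higher and 4 lower, among them *clec-117* (log2 1.38, SE 0.13) and *clec-78* (log2 -1.29, SE 0.15), and 2 were lower without exposure 3 replicate 2. Of 26 tested epidermal antimicrobial peptides 4 were higher, of 17 saposin-like and caenopore genes 1, and of 13 intracellular pathogen response genes 1. Beside these counts, 12.5% of all genes tested were higher and 7.85% lower.

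Of 13 heat shock genes 8 were lower and 0 higher in edgeR (median -0.48), with 10 and 0 at an unadjusted p under 0.05 and 9 and 0 in DESeq2. The Hsp70 family gene *F44E5.4* had 482, 462 and 613 CPM in exposure 3 normoxia against 564, 669 and 1188 CPM (log2 -0.62, SE 0.11), and *hsp-16.41*, a small heat shock protein gene, had 29.4, 24.6 and 32.5 CPM against 34.3, 35.8 and 85.1 (log2 -0.68, SE 0.11). The list was low mostly against exposure 4, against which 9 were lower, and against exposure 1 no member was called. With exposure 4 left out, 5 of the 13 were called lower. The 9 targets of HIF-1, the transcription factor of the hypoxia response, had 0 calls in edgeR, in DESeq2 and at an unadjusted p under 0.05, and lay between -0.35 and 0.15.

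Tissue and histone lists are set beside 12.5% higher and 7.85% lower genes over all genes tested. Of 16 muscle markers 7 were higher, 4 in all libraries (median 0.19), and 4 were called higher without exposure 3 replicate 2 or with exposure 2 left out. The sum was 9900, 12210 and 10570 CPM in exposure 3 normoxia against 8259 to 10290 CPM, with overlap. *clik-1*, a calponin-like protein, had 677, 838 and 649 CPM against 359, 445 and 646 (log2 0.62, SE 0.10), while the main body wall myosin *unc-54* had 1817, 2290 and 2146 CPM against 1413, 1985 and 2207 and was not called. Intestinal markers gave 2 higher genes of 11 (1 to 4 with 1 library left out), one of them *ifb-2*, an intestinal intermediate filament (log2 0.42, SE 0.08). Of 16 neuron markers 2 were lower (1 or 2 with 1 library left out), led by *unc-104*, the kinesin of synaptic vesicles (log2 -0.43, SE 0.08). Of 26 tested histone genes 5 were lower (3 without exposure 3 replicate 2) and 1 was higher, *his-70*, an H3.3-like gene, with 6.76, 6.90 and 5.61 CPM against 1.66, 2.69 and 3.42 (log2 1.35, SE 0.18). Ribosomal RNA genes, which should be mostly removed by poly(A) selection, summed to 7367, 9673 and 6927 CPM in exposure 3 normoxia against 4224 to 40300 CPM in the others, and leaving them out of the libraries ended none of the calls of the genes named here.

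To ask whether worms of the same generation held in hypoxia differed in the same genes, the same contrast was made among the 12 hypoxia libraries, none of which enters the normoxia comparison. There, 3674 genes were higher in exposure 3 hypoxia (29.4% of genes tested) and 3610 were lower (28.8%). Ribosomal RNA took 0.678, 10.29 and 5.34% of counts in the exposure 3 hypoxia libraries, and 0.431 to 17.45% over the 12 hypoxia libraries. Of the 1065 genes that were higher in exposure 3 normoxia in all libraries, 77 were higher in exposure 3 hypoxia and 370 were lower, with a median of -0.21. Of the 227 lower genes 67 were higher and 78 lower in hypoxia, which is near the background. Across the 12517 genes, the fold changes of the contrasts were almost unrelated (Pearson's r 0.04, Spearman's rho 0.06, as a description, since genes are not independent replicates).

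In this hypoxia contrast 29.4% of all genes tested were higher and 28.8% lower, which is the background of the list counts that follow. Of the 28 MSPs 10 were higher in exposure 3 hypoxia and none was lower, and the median log2 fold change of the MSPs was 1.25 in normoxia and 0.30 in hypoxia. Of 39 sperm function genes 7 were higher and 9 lower in exposure 3 hypoxia (median 0.11). Of 110 *col* genes 24 were higher and 61 lower (median -0.73). Among the 24 were *col-137*, *col-126* and *col-127*, with log2 fold changes of 2.535, 1.47 and 1.67 in hypoxia. Of 22 molting and apical matrix genes 1 was higher and 20 lower (median -1.71). All 30 oocyte and eggshell genes were higher in hypoxia (median 0.58).

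The difference between the contrasts was tested in 1 model of all 24 libraries. It was positive (higher in the normoxia contrast) for 3176 genes (25.4%) and negative for 3160 (25.2%). It was called for all 28 MSPs, all positive, for 38 of 39 sperm function genes (37 positive) and for 83 of 110 *col* genes (78 positive). Of the 1065 genes higher in all exposure 3 normoxia libraries, 999 had a called difference. Those genes were selected by the normoxia contrast, which is part of the difference, so this count is no separate result. All 30 oocyte and eggshell genes had a called difference, none of them positive. For *msp-81* the difference was 1.13, for *bli-6* it was 3.12 and for *noah-1* it was 1.34, on the log2 scale. *noah-1* fell in exposure 3 normoxia, so its positive value means a larger fall in the hypoxia contrast.

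**Figure D5:**
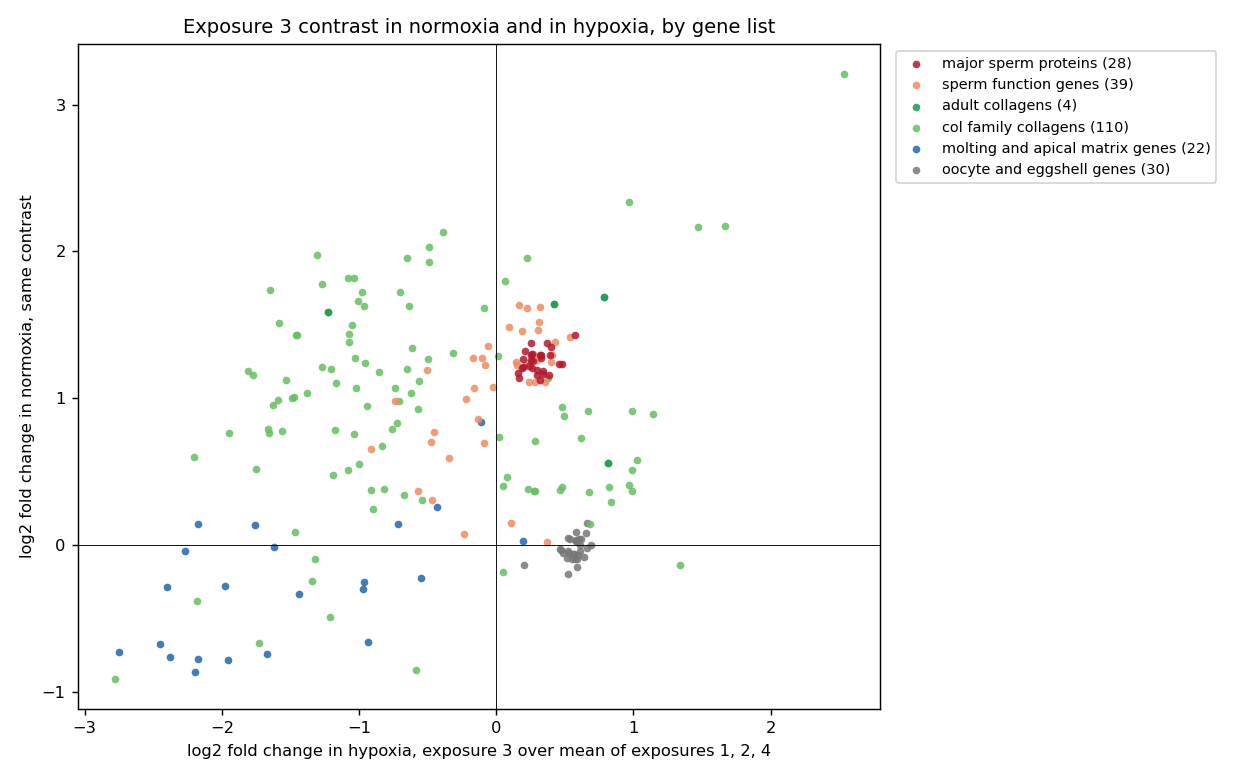
Each point is a gene of 1 of 6 lists, placed by its log2 fold change of exposure 3 over the mean of exposures 1, 2 and 4, in normoxia on the vertical axis and in hypoxia on the horizontal axis. MSPs gather at a median of 1.25 in normoxia and 0.30 in hypoxia, oocyte and eggshell genes at -0.03 and 0.58, and molting and apical matrix genes mostly lie below 0 on both axes.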

How the data were processed

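Poly(A) RNA of whole worms was made into directional libraries and sequenced. Per the labels and the study's methods, the authors trimmed reads with CutAdapt 4.0, aligned them with bowtie2 to the worm genome and used FeatureCounts to assign reads to genes. Counts in the deposited table are raw, and 0 of its per-sample columns were left unmatched. Whether counting used strand is not given in the sources used here. The authors' own tables of fold changes and p-values from DESeq2 were not used. Gene names and coordinates came from the Ensembl WBcel235 annotation.

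Genes with at least 350 counts summed over the 6 libraries of each exposure were kept (12517). The 12 normoxia libraries were fitted with edgeR 4.0.16 (R 4.3.3, TMM scaling, quasi-likelihood F test), with 1 coefficient per exposure and no covariate, and exposure 3 was set against the mean of the other 3. P-values were adjusted over all genes tested (Benjamini-Hochberg, threshold 0.05). CPM used TMM-scaled library sizes. Hypoxia libraries had their own fit, and the difference was fitted on all 24. Fits were tested on simulated data. Replicates of a group differed by more than sampling noise (chi-square per gene 16.0 to 193 over 12 pairs), so none was counted as a copy. DESeq2 1.42.0 and limma 3.58.1 served as alternatives.

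The comparison, the gene lists and the naming rule were chosen with earlier results of these data known, so no list was tested as a set. Genes named are the 12 largest rises and 12 largest falls among called genes outside the range of the other libraries with a mean of at least 5 CPM in the higher group, and from each list all members (10 or fewer) or its 3 most abundant members and 2 largest called rises and falls. The text gives a selection of these in full. Genes outside this rule are marked as chosen after their values were seen.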

Additional observations from a re-analysis of the deposited data

Results flagged for a closer look

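The contrast of exposure 3 with the mean of exposures 1, 2 and 4 was tested for a difference between its normoxia and its hypoxia form in 1 edgeR model of all 24 libraries. The difference was positive (contrast higher in normoxia) for 3176 genes and negative for 3160 at an adjusted p under 0.05. Every value below is such a difference on the log2 scale, called unless stated. Of 64 called differences of named genes, 51 kept their call in all 15 alternative settings. The call was lost in 10 settings for *fat-1*, 5 for *T14B4.19*, 4 each for *dpy-10* and *hsp-16.41* and 3 for *col-88*. Genes named for a large rise or fall were chosen by the normoxia contrast, which is part of the difference.

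Sperm genes had positive differences. They were 0.98 for *msp-57*, 1.13 for *msp-81*, 1.04 for *msp-19*, 0.86 for *msp-64* and 1.02 for *msp-152*, and 1.02 for *ssq-4*, 0.89 for *ssq-2*, 1.48 for *nspd-3* and 1.31 for *nspd-5*. *spe-11* differed by 1.42, *gsp-3* by 1.24 and *fer-1* by 1.58. *spe-39* was negative, at -0.345, and the eggshell genes *cpg-2* (-0.62) and *cpg-3* (-0.71) were negative too.

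The named collagens with a called difference had positive values. They were 1.375 for *col-88*, 2.53 for *col-162*, 2.53 for *col-60*, 2.61 for *col-120*, 1.74 for *col-145*, 2.425 for *col-161*, 2.86 for *col-71*, 1.23 for *col-62*, 2.825 for *col-63* and 0.90 for *col-7*. *col-137*, *col-126* and *col-127* had no called difference (0.68, 0.70 and 0.51, edgeR adjusted p 0.409, 0.117 and 0.331). Each of them was also called higher in exposure 3 hypoxia. Among body-shape collagens *bli-6* reached 3.12, *dpy-5* 3.255, *rol-6* 2.80 and *sqt-3* 1.201. Furrow collagens differed by 1.67 (*dpy-3*), 1.57 (*dpy-7*), 1.74 (*dpy-8*), 1.76 (*dpy-9*) and 1.012 (*dpy-10*). *sqt-3*, *dpy-3*, *dpy-7* and *dpy-10* fell in exposure 3 normoxia, so their positive values mean a larger fall in the hypoxia contrast.

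Matrix and hypodermal genes were positive as well, at 1.34 for *noah-1*, 1.18 for *noah-2*, 1.61 for *lpr-3*, 0.96 for *nas-36*, 1.77 for *mlt-7*, 2.3 for *cut-4*, 2.20 for *grd-14*, 3.36 for *grd-6*, 1.76 for *wrt-10* and 0.80 for *lin-29*. For every gene that fell in exposure 3 normoxia, a positive value means a larger fall in the hypoxia contrast. Such genes were *noah-1*, *noah-2*, *lpr-3* and *wrt-10*, and *fat-1* below. Of the remaining large rises and falls, *Y47D7A.15* differed by 2.21, *oac-20* by 1.55, *ugt-57* by 1.325, *C09F9.2* by 1.51, *T14B4.19* by 0.82 and *WBGene00007481* by 1.54. Of these, *ugt-57*, *C09F9.2*, *T14B4.19* and *WBGene00007481* also fell in exposure 3 normoxia, and *ugt-57* had a log2 fold change of -2.57 in hypoxia.

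Among metabolic and defence genes the difference was 1.24 for *acdh-8*, 1.34 for *acdh-5*, 3.34 for *acdh-1*, 1.62 for *pfk-1.2*, 1.425 for *elo-7*, 0.50 for *fat-1*, 0.80 for *lbp-7*, 0.75 for *lys-1*, 1.35 for *clec-117* and 2.43 for *nlp-33*. It was -0.46 for *hsp-16.41*, 1.44 for *his-70*, 0.24 for *cox-4* and 0.60 for *ifb-2*.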

How the results depend on the processing

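Counts of called genes depended on the filter, the fold minimum and the generations in the mean. Requiring 350 counts in the 3 normoxia libraries of each exposure gave 843 higher and 640 lower genes (502 and 139 in all libraries). A minimum log2 fold change of 1 gave 785 and 27 (699 and 3). In limma on the 4 exposure means 0 genes were called in either direction, against 896 at an unadjusted p under 0.05. With exposure 2 left out of the mean 540 genes were lower, and with exposure 4 left out 1683 were (964 in all libraries). On only the genes of largest variance, component 2 of the normoxia libraries (19.8% of variance) no longer set all exposure 3 libraries above the others. One fit of all 24 libraries gave 118 genes lower in all libraries. Leaving out 1 library at a time gave 440 to 1278 lower genes, with 440, 564 and 544 without exposure 3 replicates 1, 2 and 3. Without exposure 3 hypoxia replicate 2, 2227 genes were higher in exposure 3 hypoxia (2227 to 4347 over libraries left out) and 2101 had a negative difference (2101 to 3205). With no filter the difference was negative for 1982 genes.

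Named values that changed sign were *dpy-8* (-0.18), *dpy-9* (-0.30), *aldo-2* (0.0215) and *fat-1* (0.0695) with exposure 2 left out, and the uncalled *spe-39* (-0.0114 without exposure 1, -0.0175 without exposure 2, -0.00901 to 0.105 over libraries left out), *vit-6* (-0.0347 without exposure 4) and *cpg-2* (0.0515 without exposure 4, -0.0816 to 0.00209 over libraries left out). Of 87 called named genes, 13 more lost their call with exposure 2 left out and 18 in the fit of all 24 libraries, and 8, 11 and 6 lost it without exposure 3 replicates 1, 2 and 3. DESeq2, upper-quartile scaling and removal of ribosomal RNA genes ended none of these 87 calls. With 350 counts required in the 3 normoxia libraries of each exposure, 76 of the 87 were tested, and 3 of those lost their call. Not tested there were *col-137*, *col-126*, *col-127*, *oac-20*, *nas-36*, *magu-3*, *acdh-5*, *pfk-1.2*, *elo-7*, *clec-117* and *his-70*. These genes passed the main filter only with their hypoxia counts.

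Replicate numbers are shared between groups, but same-numbered libraries did not regularly deviate together (r -0.636 to 0.617, over 0.1 in 6 of 18 pairs). For replicates 1, 2 and 3, r between exposures 3 and 4 was 0.517, 0.595 and -0.227. Between exposures 1 and 3 it was -0.434, -0.578 and 0.617. With a replicate block 1507 genes were higher and 943 lower (1057 and 199 in all libraries), and 2 named calls were lost. With 3 libraries per generation, rare transcripts and small differences limit what can be called.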

Other observations

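Gene families by name stem, chosen after their values were seen, showed further groups that were higher in exposure 3 normoxia. All 8 tested *nspd* and all 8 tested *ssp* genes, both sperm-linked families, were higher in all libraries. Of the nematode-specific peptide families *nsph* and *nspg*, 6 of 7 and 8 of 9 tested genes were higher, with medians of 1.102 and 0.64. In all libraries 6 *nsph* genes but only 2 *nspg* genes were higher. The tau tubulin kinase-like *ttbk* family had 6 of 7 higher (median 1.09), and the scramblase-like *scrm* family 4 of 6 (median 1.04). All 6 *pud* genes were higher (median 1.12), 4 of them in all libraries, and all 6 were also higher in exposure 3 hypoxia.

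Further families were the *abu* genes, with 8 of 10 higher (median 0.92), the *idpc* genes, with 6 of 7 (median 1.23), the *irld* genes, with 7 of 9 (median 0.99), and the *nep* peptidase genes, with 7 of 17 (median 0.11). Families with lower genes included the lipocalin-related *lpr* genes, with 4 of 6 lower, all 4 in all libraries (median -0.72). Of the cadherin *cdh* genes 6 of 9 were lower against the mean, 0 in all libraries (median -0.52). Of the *hsp* genes 10 of 22 were lower against the mean, 1 in all libraries (median -0.30). All of these counts are descriptions with no test of the family.

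By chromosome, the 1065 higher genes made up 13.8% of the genes tested on chromosome IV (304 of 2199) and 2.71% of those on the X chromosome (45 of 1658). The shares on chromosomes I, II, III and V were 9.07, 9.32, 6.91 and 7.82%. By gene type, 1016 of the 1065 were protein-coding and 40 were pseudogenes, beside 11957 and 259 of the 12517 genes tested. Another annotated gene overlapped 218 of the 1065, beside 4268 of the 12517.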
